A study of Mus musculus with 12 samples.

Results

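DNA methylation of oral soft tissue was compared between mice treated with DBP and mice treated with the vehicle DMSO in fixed windows of 1000 bp, called tiles here, instead of at single CpGs. Methylated and unmethylated CpG calls were summed in each tile of the 19 autosomes of mm9, and a tile was kept when each of the 6 samples had at least 20 calls in it. This left 29327 of the 702272 tiles with any call. The calls had been obtained by enhanced reduced representation bisulfite sequencing (ERRBS), in which DNA is cut at CCGG by MspI, converted with bisulfite and sequenced. DBP is dibenzo[def,p]chrysene, a polycyclic aromatic hydrocarbon of tobacco smoke. Female B6C3F1/J mice, 8 weeks old, on an AIN-93M diet, received 24 nmol of it topically in the oral cavity 3 times per week for 5 weeks, and tissue was taken 48 h after the last dose. The 3 control samples came from mice given DMSO alone. Buccal mucosa, floor of the mouth and soft tissue of the hard palate were combined before DNA extraction, so that each value is an average over their cell types. A shift in cell mixture and a shift in methylation within cells cannot be told apart in such samples. The labels do not say whether a sample is 1 mouse, so tests that use the spread between samples speak only for these samples. The q-values of logistic regression count calls and do not measure that spread. Every direction is DBP minus DMSO as the sample labels and the deposited methylated counts give it. The study prints the opposite sign for the single CpGs it lists. Its own library summary gives DMSO samples 2 and 3 and the DBP samples methylation levels close to those of their deposited counts. The directions here thus follow the names the study gave these libraries. For DMSO sample 1 the 2 sources differ, as described below. How the printed signs arose was not tested. The other 6 samples of the series, from mice given DBP with another agent, enter only where named.

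Methylation of cytosine in CpG dinucleotides is copied at cell division by the maintenance enzyme DNMT1 and is removed through oxidation by TET enzymes. In normal tissue, CpG-rich promoters are mostly unmethylated, gene bodies and intergenic DNA are mostly methylated, and control regions of imprinted genes are methylated on only 1 parental copy. A bulky carcinogen such as DBP is activated by cytochrome P450 enzymes to diol epoxides that bind guanine and adenine in DNA.

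The reference sequences of 5 tiles are shown to place their best covered CpGs. The tiles were chosen by their difference or edgeR p or, upstream of Fgf3, by a CpG the study had listed. A shared direction of their CpGs is therefore no separate evidence. Neighbouring CpGs can also lie in the same read. Each is the plus strand of mm9 around the best covered run of CpGs. Capitals mark the CpGs with at least 10 calls in each group, and every other base is in lower case.
Disc1, intron, chr8:127736647-127736718: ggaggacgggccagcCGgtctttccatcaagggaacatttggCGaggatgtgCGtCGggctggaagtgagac
Arfip1, intron, chr3:84990762-84990838: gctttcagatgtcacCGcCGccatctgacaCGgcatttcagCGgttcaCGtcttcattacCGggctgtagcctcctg
Klraq1 (Ppp1r21), intron, chr17:88952485-88952542: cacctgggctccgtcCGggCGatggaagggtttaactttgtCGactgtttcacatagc
Adora2a, coding exon, chr10:74796261-74796377: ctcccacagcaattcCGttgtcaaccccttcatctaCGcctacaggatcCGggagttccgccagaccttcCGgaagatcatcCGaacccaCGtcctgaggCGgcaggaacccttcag
Upstream of Fgf3, intergenic, chr7:152014394-152014461: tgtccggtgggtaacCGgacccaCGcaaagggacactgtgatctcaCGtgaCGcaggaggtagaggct
All 4 marked CpGs of the Disc1 stretch were lower in DBP. The 6 of the Arfip1 stretch, 3 of Klraq1, 7 of Adora2a and 4 upstream of Fgf3 were all higher in DBP.

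Over all tiles, mean methylation differed by 0.0458 percentage points, less than the spread between samples, and the tiles divided almost evenly into higher and lower. The largest single differences stood in an intron of Disc1, a scaffold protein gene, which was lower in DBP, and in an exon of Tmprss9, which encodes a serine protease and was higher. Counted over the same CpGs in every sample, the difference stayed at Disc1 (-35.5 points) but at Tmprss9 was 11.9 points in place of 42.7, with overlapping groups. Logistic regression called 265 tiles, 0.904% of all. In the gene lists it called 6 tiles, 5 of them among the 66 of imprinted genes. In both groups methylation was under 20% in 9 of 10 promoter tiles of DBP activation and the aryl hydrocarbon receptor, 17 of 18 of NRF2 and phase II genes and 42 of 44 of bulky adduct repair, and 0 of the 14, 21 and 55 tiles of these lists were called, where 0.904% of all tiles would be under 1 tile. No tile passed the edgeR test, which uses the spread between samples.

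The samples held between 3208024 and 7793389 CpG calls on the autosomes, and the median tile had 106, 77 and 50 calls in DMSO samples 1, 2 and 3 and 98, 105 and 108 in DBP samples 1, 2 and 3. DMSO sample 3 was therefore the shallowest. A read of 50 bp can carry several CpG calls, and neither these calls nor PCR copies are independent molecules. A CCGG site was present in 99.94% of the tiles. The median tile held 33 reference CpGs, of which reads reached 18 cytosines in any sample and 6 cytosines in all samples.

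DMSO samples 1, 2 and 3 had a mean tile methylation of 40.4%, 40.6% and 40.2%, and DBP samples 1, 2 and 3 of 40.5%, 40.6% and 40.2%. The mean of the DMSO group was 40.4% ± 0.223 and that of the DBP group 40.4% ± 0.218 (SD, n = 3 each). DBP minus DMSO was 0.0458 percentage points, with p = 0.9 in a two-sided exact permutation test. The 6 samples can be divided into 3 and 3 in 10 ways, so the smallest p of this test is 0.1. With tiles weighted by their calls the samples spread further apart. The methylated share of all calls in tiles was 22.2%, 28.1% and 28.5% in the DMSO samples against 23.4%, 22.6% and 21.9% with DBP, and the group means differed by -3.66 points (exact permutation test, p = 0.3). DMSO sample 1 lay with the DBP samples in this measure, and without it the difference was -5.72 points. For this sample the study's summary of its libraries gives a higher methylation level than the 32.4% of its deposited autosomal calls. The summary places it near DMSO samples 2 and 3, whose deposited calls had 40.4% and 40.9%. For the other samples the summary and the deposited counts are close. Whether the deposited DMSO sample 1 is the library the study summarised was not tested. In the weighted measure the tiles of each sample count by that sample's own calls. It thus also carries how the reads of a sample were spread over weakly and highly methylated tiles. The sign of the mean difference depended on the weighting, and why was not tested.

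Tiles were sorted by what the annotation places in them. Within 1000 bp of a protein-coding start lay 13732 tiles (46.8%), in other exons 5375, in introns 3822 and between genes 6398. Promoter tiles, the least methylated, had a mean of 12.99% ± 0.273 with DMSO against 12.8% ± 0.210 with DBP (SD over 3 samples), while exon tiles had 69.97% ± 0.348 and 70.2% ± 0.291. Intron tiles had 65.2% ± 0.335 against 65.7% ± 0.513, and intergenic tiles 59.4% ± 0.257 against 59.6% ± 0.421. DBP minus DMSO was -0.219 points for promoter tiles, 0.260 for exon, 0.559 for intron and 0.127 for intergenic tiles (exact permutation tests, p = 0.4, 0.4, 0.3 and 0.6). By level, 14615 tiles were under 20% methylation, 6768 between 20% and 80% and 7944 over 80%, with differences of -0.189, 0.610 and -0.00179 points (exact permutation tests, p = 0.4, 0.3 and 0.9). After Benjamini-Hochberg adjustment over these 7 classes the p-values ran from 0.56 to 0.9. In each class the samples of both groups overlapped. Over the same CpGs in every sample the promoter difference turned to 0.140 points, that of tiles under 20% to 0.0880 and that of tiles over 80% to 0.135.

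**Figure D1:**
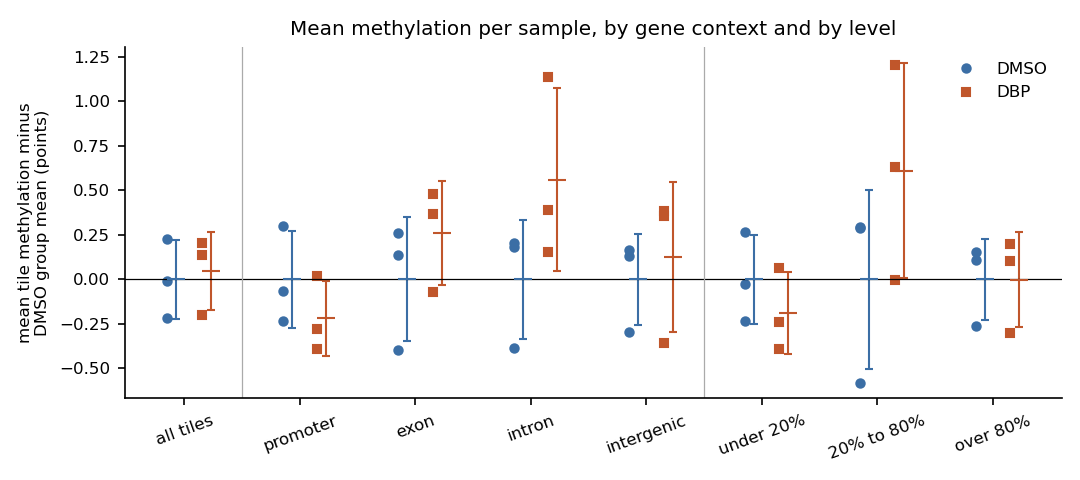
Mean tile methylation of each sample minus the mean of the DMSO group, in percentage points, for all tiles, for 4 classes of gene context and for 3 classes of methylation level. Circles are DMSO samples and squares DBP samples, with the group mean and SD beside them, and the groups overlap in every class.

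Of all tiles, 14602 (49.8%) were higher and 14719 (50.2%) lower in DBP. The median absolute difference was 2.18 points, against a median standard error of 3.08 points. Differences ran from -35.2 to 42.7 points, with 1% of the tiles below -14.2 and 1% above 15.5. A difference over 10 points was seen in 1909 tiles (6.51%), 1039 higher and 870 lower. This count was reached or passed in 2 of the 10 divisions of the samples (exact permutation test of the count, p = 0.2). It was 2896 without DMSO sample 1. Over 15 points there were 554 tiles, the most of any division (exact p = 0.1, the smallest possible), but over 25 points there were 37 (exact p = 0.3). Depth moved with these counts. The share of tiles over 10 points was 12.2% where the shallowest sample had fewer than 30 calls and 0.847% where it had at least 100. Level moved along with depth: tiles under 20% methylation had a median of 156 calls and 1.05% of them passed 10 points, while tiles of 20% to 80% had 58 calls and 21.2% passed. At the minimum itself, tiles with 20 calls in their shallowest sample had a median absolute difference of 3.51 points, and tiles left out at 19 calls had 3.98.

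**Figure D2:**
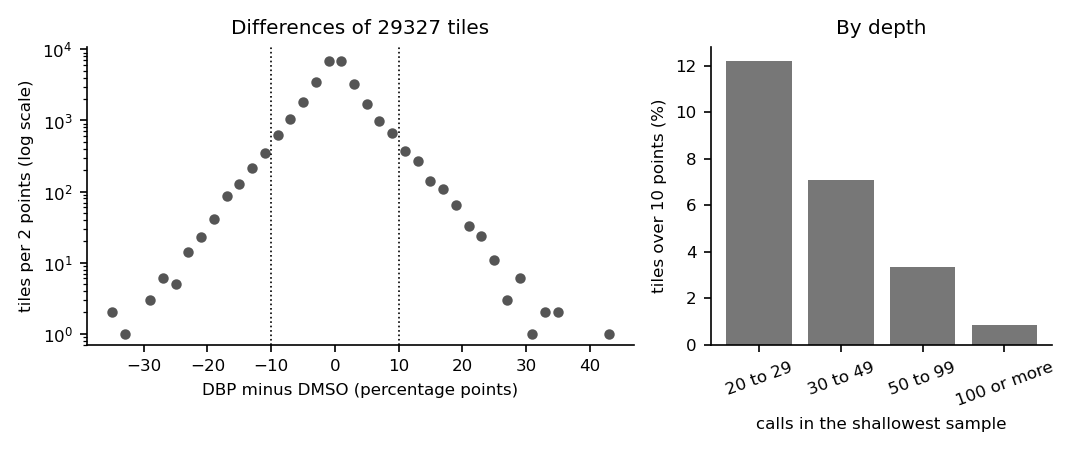
Left, number of tiles in steps of 2 percentage points of the difference DBP minus DMSO, on a log axis, with dotted lines at -10 and 10 points. Right, share of tiles with a difference over 10 points, by the calls in the shallowest sample, falling from 12.2% to 0.847%.

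On average, pairs of samples within DMSO lay farther apart, and pairs within DBP closer, than pairs between the groups. The mean absolute difference over tiles between a pair of samples averaged 6.15 points within DMSO, 5.33 within DBP and 5.80 between groups. This order did not hold pair by pair. The closest pair was DMSO sample 1, whose deposited level departs from the study's summary, with DBP sample 2 (4.92 points). The farthest was DMSO samples 2 and 3 (6.59 points), the shallowest samples, with medians of 77 and 50 calls per tile. The part of depth in this was not tested. All 15 correlations across tiles lay between 0.966 and 0.980, where tiles are not independent replicates. Neighbouring tiles carried like levels but not like differences. Over 5039 pairs of adjacent kept tiles the correlation of the levels was 0.815 and that of the differences 0.012.

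Every tile was tested in a pair of ways. The quasi-likelihood test of edgeR, which estimates the spread between samples, called 0 of 29327 tiles (0.0%) at an adjusted p under 0.05, and the smallest adjusted p was 0.993. An unadjusted p under 0.05 was reached by 1443 tiles (4.92%), of which 707 were higher (2.41%) and 736 lower (2.51%). The limma test called 0 as well, with 1667 tiles at an unadjusted p under 0.05. In 3113 tiles (10.6%) all 3 DBP samples lay on 1 side of all DMSO samples, 1510 higher (5.15%) and 1603 lower (5.47%). Logistic regression, which counts calls as if drawn from 1 pool per group and ignores the spread between samples, gave a q-value under 0.01 and a difference over 10 points, together named a call here, in 265 tiles (0.904%). Of these, 124 were higher (0.423%) and 141 lower (0.481%), and in 170 of the 265 the groups did not overlap. The count rested on single samples, being 466 without DMSO sample 1 and 141 without DMSO sample 2. DMSO sample 1 is the one whose deposited level departs from the study's summary. With a difference over 25 points, 26 tiles (0.0887%) were called, 16 higher and 10 lower. Without DMSO sample 1 edgeR called 1 tile, in an intron of Jarid2, a Polycomb cofactor (adjusted p = 0.0171), with 43.2%, 84.3% and 71.9% in DMSO and 48.7%, 34.6% and 36.7% in DBP. Its difference was -26.5 points pooled but 3.34 points over the same CpGs in every sample.

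Tiles called by logistic regression were mostly of intermediate methylation, which held 179 of the 265 (67.5%) but 23.1% of all tiles. The share called was 2.64% there, against 0.315% under 20% methylation and 0.504% over 80%. By gene context the share called was 0.597% of promoter tiles, 1.27% of exon tiles, 1.26% of intron tiles and 1.05% of intergenic tiles. Called promoter tiles were lower in DBP in 56 cases and higher in 26. In both directions some of them had a wide spread in 1 group. Odc1 had 22.6% ± 34.9 with DMSO and 2.75% ± 2.17 with DBP, and D730040F13Rik had 0.538% ± 0.931 and 12.4% ± 21.4 (SD over 3 samples). Over the same CpGs in every sample, which held 6.00% of its calls, the Odc1 difference turned to 11.9 points. Called exon tiles were higher in 41 and lower in 27, and intron tiles higher in 30 and lower in 18. This split by context was not tested. Chromosome 8 had the highest share called, 1.37%, and chromosome 18 the lowest, 0.572%.

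The tiles described next had the smallest edgeR p in each direction among those with separate groups and a difference over 10 points, and were all called by logistic regression. These values chose the tiles, so they are descriptions, and none of the tiles passed edgeR's test after adjustment. The Disc1, Arfip1 and Fam82a1 tiles also hold CpGs from a list the study had drawn from these samples.

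The Disc1 tile (chr8:127736000-127736999, intron) had 68.3%, 57.1% and 64.8% methylation in DMSO and 27.7%, 35.2% and 21.6% in DBP, from 63 to 126 calls per sample. Every DBP sample was thus far below every DMSO sample. The difference was -35.2 points with a standard error of 5.12, and the logistic q-value was 7.90e-12. Its edgeR p was the smallest of all tiles, but after adjustment it was 0.993. The 4 CpGs marked in its sequence fell from 67.1%, 66.2%, 58.7% and 57.3% of pooled calls to 36.8%, 30.3%, 23.9% and 23.9%.

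A tile in an intron of Arfip1, which encodes a Golgi protein that binds ARF GTPases (chr3:84990000-84990999), had 13.4%, 7.60% and 6.29% in DMSO and 39.5%, 21.0% and 18.4% in DBP. DBP sample 1 stood well above the others, and without it the difference was 10.6 points in place of 17.2. All 8 CpGs with at least 10 calls in each group were higher in DBP. The last exon of Adora2a, an adenosine receptor (chr10:74796000-74796999), had 69.7%, 71.6% and 53.2% in DMSO and 87.1%, 78.7% and 86.6% in DBP, and 9 of its 10 CpGs were higher. DMSO sample 3 was the lowest of the 6.

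An exon tile of Chrm1, the muscarinic M1 receptor (chr19:8753000-8753999), had 31.4%, 35.7% and 30.8% in DMSO and 58.3%, 67.9% and 59.6% in DBP. A tile in an intron of Fam82a1, also named Rmdn2 (chr17:80062000-80062999), had 79.5%, 64.6% and 78.1% in DMSO and 95.9%, 96.4% and 94.1% in DBP. An intergenic tile at chr3:9157000-9157999, whose nearest start, 93102 bp away, was that of Zbtb10, had 88.2%, 83.1% and 74.7% against 96.6%, 95.6% and 96.7%. In both of these tiles the DBP samples were close together near full methylation, while the DMSO samples were spread out. Without DMSO sample 2 the Fam82a1 tile was no longer called.

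The tile with the largest difference of all lay in an exon of Tmprss9 (chr10:80351000-80351999), with 50.0%, 27.3% and 30% in DMSO and 64.7%, 96.4% and 74.4% in DBP, from only 28 to 56 calls per sample. A single CpG there had at least 10 calls in each group, with 75% of pooled calls methylated in DMSO and 83.9% in DBP.

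Among the tiles lower in DBP, an Isyna1 tile, in the gene of inositol-3-phosphate synthase (chr8:73119000-73119999, promoter class), had 87.8%, 89.3% and 89.6% in DMSO and 74.0%, 71.2% and 68.1% in DBP. At Ccdc74a the promoter (chr16:17646000-17646999) had 16.3%, 25.2% and 8.76% against 7.22%, 5.38% and 4.33%, and 8 of its 10 counted CpGs were lower and 0 higher. An intergenic tile 24424 bp from the start of Pla2g10, a secreted phospholipase (chr16:13755000-13755999), had 8.23%, 18.3% and 18.9% against 3.50%, 1.70% and 5.14%. The promoter of Parn, a poly(A)-specific ribonuclease (chr16:13668000-13668999), had 34.5%, 83.8% and 56.8% in DMSO and 25.3%, 21.5% and 25.2% in DBP. An intergenic tile whose nearest start, 324811 bp away, is that of Rragc (chr4:123919000-123919999) had 56.2%, 65.2% and 68.2% against 25.4%, 28.4% and 34.8%. Of its 2 counted CpGs 1 was higher and 1 lower. Each of these tiles had separate groups, but 3 of them were not called without DMSO sample 2. The difference was then -21.6 points at Parn in place of -34.3, -6.89 at Ccdc74a in place of -11.1 and -10.1 near Pla2g10 in place of -11.7.

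**Figure D3:**
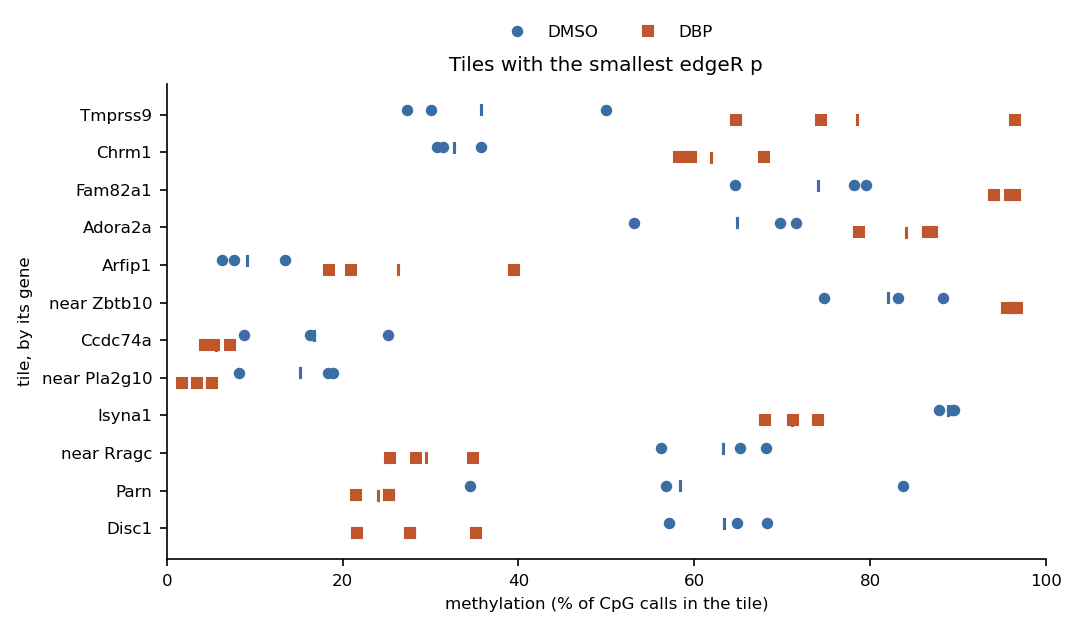
Methylation, in percent of the CpG calls of a tile, in each DMSO sample (circles) and DBP sample (squares) for the 6 tiles higher and the 6 lower in DBP with the smallest edgeR p among tiles with separate groups and a difference over 10 points. Short lines are group means, and the tiles are ordered by their difference, from -35.2 points at Disc1 to 42.7 at Tmprss9.

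A tile can also differ because the samples reached different CpGs of it. To measure this, each tile was recomputed from CpGs with at least 5 calls in each of the 6 samples, with the same weight for a CpG in every sample. This CpG-standardised value existed for 23982 tiles (81.8%), from a median of 3 CpGs. The mean difference over these tiles was 0.326 points (exact permutation test, p = 0.2), against 0.0458 pooled over all tiles. Of the 265 called tiles 221 had the value. Their direction was kept in 210 and reversed in 11, and in 163 the standardised difference was over 10 points in the same direction. In 101 the groups were separate once standardised. The value reuses calls of tiles chosen for their difference, a median of 79.6% of a tile's calls over all tiles with a value. A kept direction is therefore no separate evidence. The median difference in the direction of the call went from 16.2 points pooled to 13.9 points standardised.

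The named tiles differed in this respect. The standardised difference was -35.5 points at Disc1 (pooled -35.2), 16.2 at Arfip1 (17.2), 20.9 at Adora2a (19.3), 21.3 at Fam82a1 (21.4) and 14.9 near Zbtb10 (14.2). At Ccdc74a it was -13.8 points (-11.1), from CpGs that held only 21.0% of the calls. At Chrm1 it was 21.9 points (29.3) from 1 CpG that held 21.2% of the calls. At Tmprss9 it was 11.9 points with a standard error of 9.06, against 42.7 pooled, and the groups overlapped. At Isyna1 it was -6.22 points with a standard error of 4.12, against -17.8 pooled, and the groups overlapped too. The Parn tile and the tiles nearest to Rragc and Pla2g10 had no CpG with enough calls in every sample. In the Parn tile only 37.1% of the calls lay on cytosines seen in all samples. In the tile nearest to Rragc, which differed by -33.7 points, the pooled calls of the groups were spread differently over the CpGs. For example, a CpG there at 25% (DMSO) against 19.1% (DBP) held 8 DMSO calls but 47 DBP calls. The 2 counted CpGs held 25 and 21 DMSO calls against 24 and 25 DBP calls. Pooled, 1 went from 76% with DMSO to 79.2% with DBP, and the other from 95.2% to 88%. What part the choice of CpGs had in the differences was not tested in tiles without a standardised value.

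**Figure D4:**
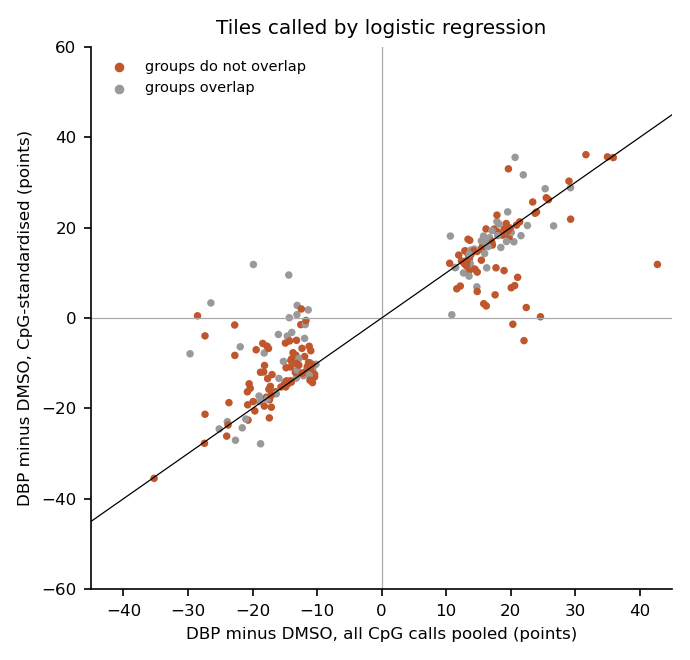
Difference DBP minus DMSO, in percentage points, of the 221 called tiles with both values, from all CpG calls pooled (horizontal) and standardised to the same CpGs in every sample (vertical). The line marks equal values, colours tell whether the groups overlap in the pooled value, and the point farthest right is Tmprss9, at 42.7 and 11.9 points.

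The largest differences among called tiles with separate groups added 4 more tiles. In an intron of Arl15, an ARF-like GTPase gene (chr13:114703000-114703999), methylation was 47.5%, 66.7% and 25% in DMSO and 93.8%, 78.1% and 75% in DBP, and all 4 CpGs were higher. Its standardised difference was 35.5 points. In an intron of Klraq1, the name of Ppp1r21 in this annotation (chr17:88952000-88952999), it was 41.5%, 50.0% and 13.8% against 73.6%, 65.0% and 71.7%, with a standardised difference of 35.7 points. The promoter tile shared by the imprinted genes Peg10 and Sgce (chr6:4697000-4697999) had 41.7%, 13.8% and 4% in DMSO and 52.0%, 63.9% and 44.4% in DBP. Its DMSO samples were far apart, on 25 to 48 calls each, and it was not called without DMSO sample 2 (30.6 points) or 3 (25.7 points). It had no standardised value, and its 5 counted CpGs were higher by less than the tile, the farthest apart at 23.1% against 36.7% of pooled calls. The Arl15 tile was not called without DMSO sample 3 (25.2 points). An intergenic tile whose nearest start is that of Lep, the leptin gene (chr6:28974000-28974999), had 41.5%, 75% and 76% against 34.8%, 36.5% and 35.6%, but its standardised difference was 0.493 points, and the pooled tile was called only with all 6 samples or without DMSO sample 1.

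The study had listed 30 single CpGs with a difference over 25%, chosen on these same samples, so their tiles are no independent evidence. Of these sites 29 lay in kept tiles, 27 tiles in all. Their median absolute difference was 32.5 points at the site and 14.2 points in the tile, and 16 of the 29 were in called tiles. With its own listed CpG taken out, 22 still had at least 20 calls in every sample in the rest of the tile. Both listed Disc1 CpGs lie in the same tile and count separately, each with the other still in the rest (-34.7 and -34.6 points). The rest moved in the same direction as its site, both computed from the deposited counts and so opposite in sign to the study's list, in 19 of the 22, with a median absolute difference of 7.08 points, and passed 10 points in 9.

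Tiles at the genes that were also measured by RT-PCR differed widely. The Klraq1 tile is described above. The intergenic tile upstream of Fgf3, which encodes a fibroblast growth factor (chr7:152014000-152014999, centre 9488 bp from the start), had 52.1%, 50.7% and 33.9% in DMSO and 72.2%, 65.3% and 53.1% in DBP. Its difference was 17.9 points with a standard error of 8.08, at a logistic q-value of 0.000830 and an adjusted edgeR p of 0.993. Without DMSO sample 3 (12.1 points) or DBP sample 1 (13.6 points) it was not called. Without the listed CpG it was 12.4 points with a standard error of 8.65, and the groups then overlapped. The 2 kept tiles at Fgf3 itself had mean levels of 5.31% and 7.19%. Their differences ran from 0.213 to 1.69 points, with overlapping groups, and neither was called. The intron tile of Spata13 that holds the site assigned to C1qtnf9 (chr14:61342000-61342999) had 56.2%, 64.6% and 54.1% against 76.3%, 73.5% and 66.7%, a difference of 13.8 points, and 5.36 points without the listed CpG. It was still called without DMSO sample 2 or DBP sample 3, but not when any of the other 4 samples was left out.

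The other tiles of these genes were not called. The promoter of Ctnnb1, which encodes β-catenin (chr9:120843000-120843999), had 11.02%, 14.7% and 10.8% in DMSO and 4.69%, 6.98% and 6.79% in DBP. Its groups were separate. Without the listed CpG that tile had a mean of 6.13% in DMSO and 5.09% in DBP. The promoter of Tbc1d4, a regulator of glucose transporter traffic (chr14:102008000-102008999), had 17.9%, 19.3% and 24.2% against 11.9%, 11.9% and 12.7%. Without its listed CpG the tile had 3.16% in DMSO and 5.05% in DBP, the opposite direction. The difference of the Pkm promoter (Pkm2 in this annotation), of pyruvate kinase, was -0.339 points over 325 to 670 calls per sample, although the listed CpG alone differed by -35.7 points. The remaining differences were -3.43 points at Ppp1r13l, -3.67 in the Camta1 promoter tile that holds the site assigned to Vamp3, and 8.43 at Efemp2, each with overlapping groups. At Vamp3 itself 2 kept tiles had differences from 0.218 to 1.75 points, also with overlapping groups.

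Genes that act on DBP or on its DNA damage were examined as lists. Of the 14 tiles of the aryl hydrocarbon receptor pathway and DBP activation, 6 were higher and 8 lower, with a median of -0.339 points against -0.0142 over all tiles. None was called by logistic regression, and 1 had an unadjusted edgeR p under 0.05. That tile was the promoter of Por, the reductase that supplies electrons to cytochrome P450 enzymes (chr5:136164000-136164999), with 2.61%, 2.58% and 2.90% in DMSO and 5.25%, 5.73% and 4.81% in DBP. Its groups were separate, but the level stayed low. The promoter of Ahr, the receptor itself, had 3.44% in DMSO and 2.80% in DBP. At Cyp1b1, the P450 known for activating DBP, the promoter had 4.602% and 4.564%, and an exon tile 9.96% and 11.4%. The lowest difference of this list was -10.4 points, in a promoter tile of Cyp1a1 with 20 to 38 calls per sample and overlapping groups. The Tiparp promoter, of a receptor target, had 4.05% against 2.89%, with overlapping groups.

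The NRF2 and phase II list, of genes that conjugate and clear reactive metabolites, had 21 tiles, 11 higher and 10 lower (median 0.202 points), with 0 called. Its lowest was the promoter of Maff, a small MAF partner of NRF2 (chr15:79178000-79178999), with 7.87%, 23.3% and 16.3% in DMSO and 4.48%, 6.18% and 6.64% in DBP. Only 18.7% of the calls in the Maff tile lay on cytosines seen in all samples. DMSO samples 2 and 3 had 43 calls each there, against 201 to 275 in the DBP samples. Pooled, its 2 counted CpGs fell from 23.3% to 12.9% and from 42.1% to 36.4%. The highest tile of this list was an exon tile of Mafg, with a difference of 9.86 points and overlapping groups.

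The list of bulky adduct repair and bypass covered 34 genes with 55 tiles, 44 of them promoters. It had 28 tiles higher and 27 lower, a median of 0.104 points, a range from -3.98 to 6.05 points and 0 called tiles. At the promoter of Rev1, a translesion polymerase (chr1:38186000-38186999), methylation was 1.80%, 1.3% and 2.42% in DMSO and 5.78%, 5.31% and 3.28% in DBP. A promoter shared by Gtf2h3, a subunit of the repair factor TFIIH, and Eif2b1 had 4.81%, 5.11% and 2.84% against 2.14%, 1.88% and 2.88%. The Rev1 groups were separate and those of Gtf2h3 overlapped, all at the low end of the scale. CpG-standardised, the Rev1 difference was 0.430 points in place of 2.95.

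Tumour suppressors known to be silenced in oral cancer had 59 tiles, 35 higher and 24 lower (median 0.152 points), with 0 called. Of 38 promoter tiles 34 were under 20% in both groups, among them Cdh1 (7.66% in DMSO, 8.31% in DBP) and Timp3 (6.62%, 6.63%), genes of cell adhesion and protease inhibition. The other 4 were at Dab2ip, Runx3, Hoxa9 and Tcf21. At Sfrp4, a WNT antagonist (chr13:19715000-19715999), the promoter had 12.4%, 18.8% and 14.3% in DMSO and 12.5%, 5.88% and 7.75% in DBP, with overlapping groups and a CpG-standardised difference of 0.513 points. At Rarb, a retinoic acid receptor (chr14:17407000-17407999), it had 12.2%, 2.63% and 4.44% against 4%, 35.1% and 7.41%, where DBP sample 2 alone was high.

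The enzymes that write, read and erase methylation had 34 tiles, 22 higher and 12 lower, with a median of 1.43 points and 0 called. Only 1 tile had separate groups (2.94%, against 10.6% of all tiles), the promoter of Uhrf1, which guides DNMT1 to replicated DNA (chr17:56443000-56443999). It had 2.89%, 0.990% and 3.23% in DMSO and 4.38%, 4.89% and 3.35% in DBP. A Dnmt1 intron tile had a difference of -5.22 points with overlapping groups. Differences in this list ran from -6.23 to 12.6 points. The 2 tiles over 10 points, at Dnmt3l (12.6) and Dnmt3b (10.5), had overlapping groups.

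Imprinted genes had 66 tiles, 39 higher and 27 lower (median 0.967 points), and 5 were called by logistic regression (7.58%, against 0.904% of all tiles). Groups were separate in 7 of the 66, a share equal to the 10.6% of all tiles. Of the 66, 39 were between 20% and 80% methylation. In those 39 the median absolute difference was 7.66 points and 35.9% passed 10 points, while of all tiles between 20% and 80% the median was 5.14 points and 21.2% passed. Among the 5 called tiles 3 were higher in DBP and 2 lower.

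Besides Peg10, the called imprinted tiles were at Snrpn, Cdkn1c, Gnas and Igf2r, named here after their values were seen. The promoter of Snrpn, a paternally expressed gene (chr7:67149000-67149999), had 48.0%, 45.4% and 33.8% in DMSO and 48.6%, 61.7% and 56.0% in DBP, from 154 to 425 calls. Its standardised difference was 14.8 points with a standard error of 7.84. An exon tile of Cdkn1c, a cell cycle inhibitor expressed from the maternal copy (chr7:150644000-150644999), had 38.1%, 28.2% and 86.4% against 68.9%, 79.7% and 71.8%, so that DMSO sample 3 lay above all DBP samples.

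The promoter class tile of Gnas, which encodes the stimulatory G protein α subunit (chr2:174154000-174154999), had 32.1%, 27.9% and 33.9% in DMSO and 18.1%, 21.8% and 21.5% in DBP, from 327 to 666 calls. Of its 18 counted CpGs 14 were lower and 4 higher. The standardised difference was -11.8 points with a standard error of 1.503. Without DMSO sample 3 or DBP sample 1 the pooled difference was -9.54 or -9.67 points, just under the 10 points of a call. At Igf2r, a receptor with an imprinted control region in an intron, the intron tile at chr17:12935000-12935999 had 47.6%, 54.2% and 63.3% against 25.3%, 26.5% and 45%. Its neighbour at chr17:12934000-12934999 had 42.6%, 48.6% and 69.6% against 31.1%, 49.4% and 35.8% and was not called. The standardised difference of the first was -8.27 points with a standard error of 9.82, with overlapping groups.

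**Figure D5:**
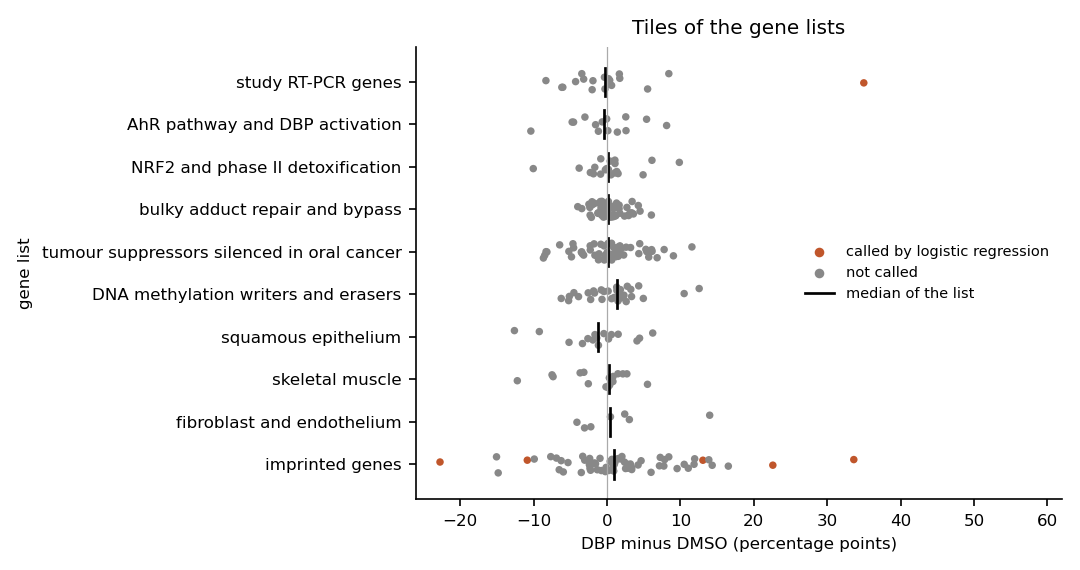
Difference DBP minus DMSO, in percentage points, of the tiles of 10 gene lists, 1 point per tile, with the median of each list as a line. Tiles called by logistic regression are in colour: 5 lie at imprinted genes, from -22.7 to 33.6 points, and 1 at the genes of the expression study (Klraq1).

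Lists for the cell types of the tissue had few tiles. The 16 tiles of squamous epithelium averaged 47.4% ± 1.42 with DMSO against 46.0% ± 0.917 with DBP, and the 16 of skeletal muscle 57.7% ± 0.993 against 56.4% ± 1.35 (SD over 3 samples). The 7 tiles of fibroblast and endothelium genes had 43.7% ± 2.35 and 45.2% ± 2.42. The groups overlapped in all 3 lists, and 0 of these tiles were called. Immune genes had 1 tile, at 88.2% ± 2.20 and 84.9% ± 9.70. Defining epithelial markers were not all unmethylated. The promoter of Perp, a desmosome protein gene, had 11.2% in DMSO and 15.3% in DBP, while a promoter tile of Krt4, a keratin of stratified mucosa, had 94.6% and 93.2%. A tile before the Krt4 start (chr15:101755000-101755999) had 90.3%, 94.6% and 92.3% in DMSO and 78.8%, 84.4% and 76.2% in DBP. It rested on 26 to 52 calls per sample at 2 well covered CpGs, and logistic regression did not call it (q = 0.0928).

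DBP was also given, together with another agent, to the mice of 2 further groups, whose values are set beside these without a test. At Disc1 the group given DBP with an unnamed chemopreventive agent had 47.0% ± 12.9 (SD, n = 3), and the group given DBP with BR extract had 62.2% and 43.9% in the 2 samples with calls. At Arfip1 these groups had 19.5% ± 1.80 and 21.9% ± 2.47, at Adora2a 73.6% ± 11 and 76.6% ± 11.3, and at Chrm1 52.2% ± 14.7 and 48.0% ± 11.4 (SD, n = 3 each). The tile upstream of Fgf3 had 47.1% ± 15.5 and 62.2% ± 10.8, and the Gnas tile 18.3% ± 1.85 and 30.8% ± 10.1. In both groups the SD at Chrm1, Adora2a and Fgf3 was over 10 points.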

How the data were processed

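The authors trimmed reads with Trim Galore 0.3.3, aligned them to mm9 with Bismark 0.10.1 and deposited, per CpG cytosine and strand, counts of methylated and unmethylated reads without normalization. Duplicates cannot be seen in these counts. All positions were CpGs of the reference. Counts were summed in 1000 bp tiles (20 calls in each of 6 samples), and a difference is the DBP mean minus the DMSO mean of sample percentages. Logistic regression used a likelihood ratio test (q under 0.01, over 10 points). edgeR 4.0.16 fitted methylated and unmethylated counts with a sample effect per tile and a quasi-likelihood F test, Benjamini-Hochberg adjusted. Single values had two-sided exact permutation tests. Other tools were R 4.3.3, limma 3.58.1, Python 3.11.15, NumPy 2.4.6, SciPy 1.17.1 and pysam 0.24.0. Promoters lie within 1000 bp of GENCODE vM1 protein-coding starts, and a tile carries genes it overlaps, or their first 1000 bp upstream. Scripts were tested on simulated data.

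Named tiles were the 6 higher and 6 lower with the smallest edgeR p, and the 4 and 4 with the largest differences among called tiles, all with separate groups, the tiles of the 9 expression genes, and per list the smallest edgeR p in each direction. Members and lists were chosen with earlier results of these data known. CpG-standardised values were added after seeing the data. Other alternatives changed the call minimum, cytosines used, grid, weighting, tests, block and samples.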

Additional observations from a re-analysis of the deposited data

How the results depend on the processing

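Deeper tiles, which were also less methylated, differed less: with 20 to 29 calls in the shallowest sample the median absolute difference was 3.49 points, with 100 or more it was 1.01. Logistic calls, 265 as reported, numbered 140 at a minimum of 50 calls, 576 with calls scaled to the highest median coverage, 556 at a q-value under 0.05, 26 over 25 points, 0 by an F test with overdispersion per tile. A Cochran-Mantel-Haenszel test on the 23982 tiles with a CpG-standardised value called 148 (86 higher, 62 lower), of which 117 were also logistic calls. Logistic calls ran from 141 (without DMSO sample 2) to 466 (without DMSO sample 1) with each sample left out. The numbers 1 to 3 do not pair the samples: deviations of like numbers correlated at 0.0072, -0.031 and 0.0087. With a replicate block there were 277 logistic calls and 0 edgeR calls (1399 at an unadjusted p under 0.05), and the mean difference was 0.0458.

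edgeR called 0 tiles except 1 with a likelihood ratio test (Disc1, adjusted p = 0.00658) and, with samples left out, 0 to 1, the 1 being a Jarid2 intron tile without DMSO sample 1 (adjusted p = 0.0171, standardised difference 3.34 points against -26.5 pooled). limma called 0 (1667 unadjusted). The mean difference became -0.0144 at 50 calls and -3.66 weighted by calls (-5.72 to -2.53 with samples left out), was 0.326 CpG-standardised, and unweighted ran from -0.0631 to 0.170 with samples left out. Tiles over 10 points numbered 5520 at 10 calls and 287 at 50 calls, and 2238 to 2896 with samples left out. In tiles over 80% the difference became 0.0531 at 50 calls, 0.0876 on shared cytosines and 0.135 CpG-standardised, and ran from -0.132 to 0.149 with samples left out. Between genes it ran from -0.0211 to 0.370. CpG-standardised differences became 0.140 in promoters and 0.0880 in tiles under 20%. Named tiles reversed CpG-standardised at Lep (0.493), Pkm (0.715) and Sfrp4 (0.513). With samples left out, differences that were not called ran from -6.72 to 0.0167 at Ppp1r13l, -0.351 to 4.09 at Ckm, -1.83 to 0.519 at Pkm, -0.737 to 14.8 at Rarb and -8.25 to 1.45 at Csf1r. The share of tiles higher in DBP stayed between 48.6% and 50.4%. Why these values moved was not tested.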
